A study of Homo sapiens with 4 samples.

Results

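The exons described here are skipped exons that the deposited splicing files measured but that equal no exon of the GENCODE release 29 annotation on hg38, by start, end and strand. An exon was tested when neither file had fewer than 20 informative reads, meaning reads that fit only the isoform with the exon (inclusion-only, or reads for the exon) or only the isoform without it (exclusion-only, or reads against it). Where pairs of read numbers are given below, reads for the exon come first. When several events held the same exon, the event with the most informative reads was kept. Of 18682 tested exons, 649 (3.47%) were unannotated in this sense. They lay in 617 separate stretches of the genome, since 62 of them overlapped another unannotated exon and so shared reads with it. They belonged to 510 genes, and 607 of them to protein-coding genes.

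The cells were MDA-LM2, a lung-metastatic derivative of the MDA-MB-231 human breast cancer cell line. Total RNA was taken 48 h after transfection with small interfering RNAs against SNRPB2 (siSNRPB2, 2 libraries) or control siRNAs (siCtrl, 2 libraries). Per the labels, knockdown by quantitative PCR was above 95% for the 2 siRNAs chosen. Which siRNA went into which library, and whether the libraries are separate cultures, is not given there. The deposited files hold 1 inclusion level ψ per event and group, the share of transcripts keeping the exon as a fraction, so no difference given here has a replicate check. No event overlapped SNRPB2, so its own RNA was not analysed here.

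The siSNRPB2 file listed 42670 events with 93580246 assigned reads and the siCtrl file 42159 events with 100579230. Among genes with events, the mesenchymal markers CD44, FN1, ZEB1 and AXL summed to 48961 and 62452 reads on their deepest events (siSNRPB2 and siCtrl). The epithelial list summed to 11707 and 14244 reads, nearly all of them from KRT8. CDH1, EPCAM, KRT18 and GRHL2 had no event, nor had the mesenchymal markers VIM and CAV1. Blood and endothelial genes summed to 93 and 77 reads.

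Exons are recognised by the spliceosome through short signals at their borders. The U2 small nuclear ribonucleoprotein, of which the SNRPB2 product U2B'' is a protein, pairs with the branch point, shortly before the place where the intron ends with the letters AG (the 3' splice site). The U1 particle binds the 5' splice site, where introns usually begin with GT and more rarely with GC. Introns hold many stretches that resemble these signals, and an exon made from such a stretch is called a cryptic exon. When 2 candidate AGs lie a few bases apart, as in the NAGNAG arrangement, either can be used and the exon changes by that many bases. Cryptic exons and small shifts that break the reading frame can expose a transcript to nonsense-mediated decay.

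Sequences of the exons came from GENCODE transcript sequences on hg38, which cover an unannotated exon only where some other annotated transcript runs through it. The 3' splice site examples below show an unannotated AG close to an annotated one. In each line, capitals mark the AG just before the unannotated exon and, where it is within reach, the AG of the annotated exon nearby. The exons lie at chr11:64224100-64224213 (TRPT1, minus strand), chr20:63701830-63701895 (ARFRP1, minus) and chr6:44256342-44256492 (SLC35B2, minus). ARFRP1 is shown whole, with the GT after the exon also in capitals.
TRPT1: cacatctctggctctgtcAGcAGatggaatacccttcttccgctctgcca
ARFRP1: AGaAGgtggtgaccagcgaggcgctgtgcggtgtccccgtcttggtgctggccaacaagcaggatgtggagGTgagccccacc
SLC35B2: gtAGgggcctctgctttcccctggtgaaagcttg
In TRPT1 the unannotated site lies 3 nt before the annotated one and in ARFRP1 3 nt after it. In SLC35B2 the unannotated site is 4 nt downstream.

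The second set shows unannotated 5' splice sites, with the letters just after the exon in capitals, and for SSR4 also the annotated GT. SINHCAF is shown because it has 2 unannotated sites 4 nt apart, and SSR4 because its unannotated site is GC. The exons lie at chr13:94590857-94590943 (TGDS, minus strand), chrX:153795663-153795856 (SSR4, plus), chr12:31304982-31305123 and chr12:31304986-31305123 (SINHCAF, minus).
TGDS: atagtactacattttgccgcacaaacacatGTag
SSR4: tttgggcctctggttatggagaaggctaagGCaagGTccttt
SINHCAF, 142 nt exon: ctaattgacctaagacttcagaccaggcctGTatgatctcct
SINHCAF, 138 nt exon: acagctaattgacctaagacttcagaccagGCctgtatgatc

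The third set shows exons with no annotated splice site at either end. The PRPF38B exon, chr1:108697810-108697863 (plus strand), is shown whole with its AG and GT in capitals. The NIPAL3 exons, chr1:24416025-24416299 and chr1:24416068-24416299 (plus), end at the same base and are shown at their AG.
PRPF38B: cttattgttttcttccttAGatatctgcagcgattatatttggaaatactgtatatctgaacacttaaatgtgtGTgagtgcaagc
NIPAL3, 275 nt exon: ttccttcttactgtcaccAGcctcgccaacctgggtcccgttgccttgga
NIPAL3, 232 nt exon: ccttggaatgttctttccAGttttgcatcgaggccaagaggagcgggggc

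These letters were the rule wherever they could be read. Of 160 readable 3' splice sites not in GENCODE, 156 (97.5%) had AG just before the exon, against 5341 of 5353 (99.8%) for annotated tested exons. Inside readable unannotated exons, AG made up 8.27% of all pairs of neighbouring bases. Of 104 readable unannotated 5' splice sites, 102 (98.1%) had GT or GC just after the exon, against 4838 of 4844 (99.9%) for annotated exons and 10.98% of pairs of neighbouring bases inside exons. GC stood at 17 of the 104 unannotated 5' splice sites (16.3%) and at 106 of 4844 annotated ones (2.19%). Readable sites are not a sample of all sites: only 281 of the 649 exons could be read from end to end, and of the 220 inside introns the start was readable in only 3 and the end in only 3.

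Position against the annotation divided the exons into 7 classes. In 205, the 5' splice site was annotated and the 3' splice site was not, so the exon began at an unannotated 3' splice site. In 148 the reverse held and the exon ended at an unannotated 5' splice site. In 49 both sites were annotated, but in no exon together. A further 220 lay inside an intron and touched no annotated exon on their strand, 13 lay inside a longer exon, 9 overlapped exons in another way and 5 lay outside genes. The flanking exons were ordinary: both flanking splice sites were annotated for 630 exons (97.1%), and the junction that skips the exon was annotated for 571 (88.0%), against 95.4% for annotated exons.

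Unannotated ends were often close to annotated ones. Of the 205 unannotated 3' splice sites in this class, 119 lay within 50 nt of an annotated 3' splice site and 60 within 6 nt, with 23 at a distance of 3 nt and 23 at 4 nt. The site was downstream, giving a shorter exon, in 17 of the 23 at 3 nt and in 16 of the 23 at 4 nt. Of the 148 unannotated 5' splice sites, 65 lay within 50 nt and 25 within 6 nt, with 11 at 4 nt, 8 at 5 nt and 3 at 3 nt. A shift that is a multiple of 3 keeps the reading frame of coding sequence. Within 50 nt, 48 of 119 shifts at 3' splice sites (40.3%) and 23 of 65 at 5' splice sites (35.4%) were multiples of 3. Exons inside introns lay farther off, a median of 1774 nt from the nearest annotated site of the same kind, and 153 of the 220 were over 1000 nt away.

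**Figure D1:**
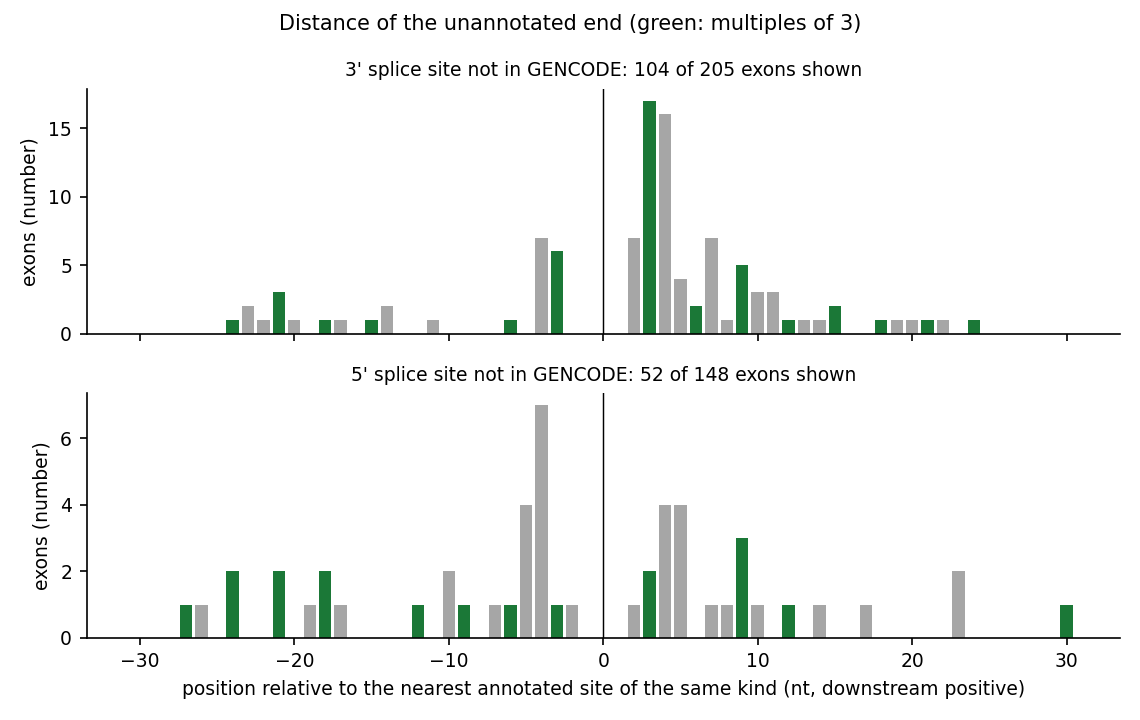
Number of unannotated exons (vertical axis) by the position of their unannotated end relative to the nearest annotated splice site of the same kind (horizontal axis, nt, downstream positive), for exons whose other end is annotated. Green bars are multiples of 3; at 3' splice sites the tallest bars are at 3 nt (17 exons) and 4 nt (16 exons) downstream, and at 5' splice sites at 4 nt upstream (7 exons).

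Unannotated exons were somewhat longer than annotated ones, with a median of 136 nt against 121 nt, and ranged from 12 to 4407 nt. Their length was a multiple of 3 in 227 cases (35.0%), against 42.0% of annotated exons. Coding sequence overlapped 251 of them (38.7%), none of those inside introns. They also rested on fewer reads: the median number of informative reads was 88 in siSNRPB2 and 102 in siCtrl, against 137 and 158 over all tested exons. Chromosomes 13 (22 of 257 tested exons, 8.56%) and 10 (55 of 730, 7.53%) had the highest shares of unannotated exons.

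In both groups the unannotated exons were included less than annotated ones. Median ψ was 0.22 in siSNRPB2 and 0.20 in siCtrl, against 0.82 and 0.83 for annotated exons. In siCtrl, 227 unannotated exons (35.0%) had ψ of at most 0.05 and 127 (19.6%) of at least 0.95. For annotated exons these shares were 18.8% and 38.1%. The low values came mainly from exons inside introns, with a median of 0.02 in both files and ψ of at most 0.05 in 151 of 220 in siCtrl. Exons with an unannotated 3' splice site had medians of 0.65 in siSNRPB2 and 0.76 in siCtrl, and those with an unannotated 5' splice site 0.535 and 0.505. The level depends on the measure: the plain share of inclusion-only among informative reads had a median of 0.806 in siSNRPB2 and 0.846 in siCtrl over all 649, and 1.00 for annotated exons. For exons inside introns the median of that share was 0.0174 and 0.0288, as low as the median ψ. Of these 220 exons, 72 had no inclusion-only read in either file. In single exons the measures could lie far apart: BCL2L13 had 28 reads for and 5 against its exon in siSNRPB2, with ψ of 0.20.

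**Figure D2:**
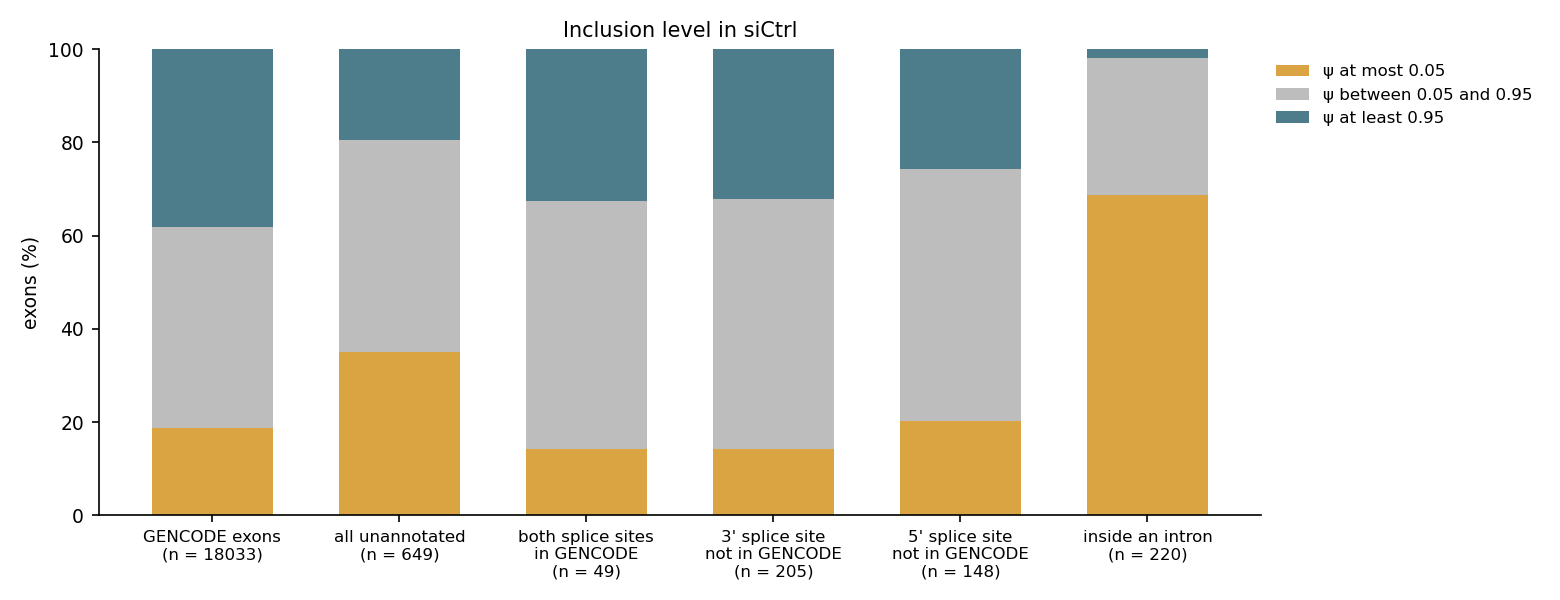
Share of exons (vertical axis, %) with ψ in siCtrl of at most 0.05, between, or at least 0.95, for annotated exons, all unannotated exons and 4 of their classes. In the bar for exons inside introns, 68.6% lie at 0.05 or less, and in the bar for annotated exons 18.8%.

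An exon that shares a splice site with an annotated exon also shares that exon's body, and reads within the body count as inclusion for both. A tested annotated exon with the shared site was found for 247 unannotated exons. In siCtrl their ψ differed by a median of 0.02, and by at most 0.1 in 195 pairs. For such exons ψ describes the annotated and the unannotated version together. Of these unannotated exons, 46 were among the calls given further on; the annotated exon was called the same way in 31 of them and not called in 15. The deepest examples within 6 nt of an annotated end were fully included: MCM3, a subunit of the replicative helicase, had 1717 inclusion-only reads in siSNRPB2 and 2559 in siCtrl, no exclusion-only read and ψ of 1.00 in both. PAIP2, a regulator of poly(A)-binding protein, had 4448 and 4425 inclusion-only reads and ψ of 1.00 in both. ZYX, encoding the focal adhesion protein zyxin, had 2156 and 2616 and ψ of 1.00. CCNI, encoding cyclin I, had ψ of 0.99 in both files, with 17 and 23 reads against the exon. RPS24, a protein of the small ribosomal subunit, was the reverse. Its 21 nt exon, 3 nt longer than the annotated microexon, had ψ of 0.01 in both files, with 18 reads for and 1349 against the exon in siSNRPB2, and 50 for and 2199 against in siCtrl.

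Of the 5 exons with the most informative reads of all, 4 had ψ of 1.00 in both files. PCNP, a nuclear protein gene, had a 344 nt exon inside an intron (chr3:101576451-101576794) with ψ of 1.00 in both files. It had 18199 and 21906 inclusion-only reads and 1 exclusion-only read in each file. That exon overlaps an exon of a gene on the opposite strand. The labels name a stranded library kit, but whether reads were assigned by strand is not given in the sources used here. RPL10, a protein of the large ribosomal subunit, and HNRNPA3, an RNA-binding protein, had ψ of 1.00 in both files, as had PNISR, a serine and arginine-rich protein gene. HNRNPH3, a further RNA-binding protein, had an exon ending 18 nt before an annotated 5' splice site, with ψ of 0.54 in siSNRPB2 and 0.48 in siCtrl. The authors' intervals for HNRNPH3, 0.52 to 0.55 and 0.46 to 0.49, do not overlap, and the difference of 0.06 is under the 0.1 that the rule for calls below asks for. Opposite-strand exons overlapped 22 of the 649 exons in all, 6 of them among the calls described next (2 in NIPAL3, and 1 each in GRAMD2B, STX2, TIMM23B and ZNF717).

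The main question was whether inclusion of these exons differed when SNRPB2 was depleted. The authors' deposited table gives for each event a ψ difference and a Bayes factor, which weighs a real difference against none. An exon was called when the factor reached 10 and ψ differed by 0.1 or more. By this rule 50 unannotated exons (7.70%) were called lower in siSNRPB2 and 52 (8.01%) higher. Over all 18682 tested exons, 7.61% were called lower and 7.13% higher, so the unannotated exons were called about as often as any others. The median ψ difference was 0 for the unannotated exons and for all tested exons. The 102 calls came from 90 genes. In 34 of them (33.3%) no file had an exclusion-only read, and ψ rested on inclusion-only reads against reads that fit both isoforms.

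Counting reads directly gave a similar balance. Fisher's exact test (2-sided) compared inclusion-only and exclusion-only reads between the files, with Benjamini-Hochberg adjustment over all 18682 exons. This test compares the files and not the conditions. Exons with an adjusted p under 0.05 whose share of reads for the exon moved by 0.1 or more were counted: 60 unannotated exons (9.24%) were lower and 50 (7.70%) higher, against a background of 5.28% lower and 5.28% higher. These shares are not directly comparable, because an exon without exclusion-only reads cannot pass. Such exons made up 32.7% of the unannotated and 51.1% of all tested exons. The background calls, 987 lower and 986 higher, came from 9132 exons with exclusion-only reads, and the unannotated calls from 437. Both rules called 53 of the exons in the same direction. Between the files, reads of almost fully included exons varied far more than independent counts: the noise factor, described with the processing, was 9.93. It compares siSNRPB2 with siCtrl without replicates, so any effect of the knockdown is part of it. It rests on inclusion-only and flanking reads, and does not measure the variation of exclusion-only reads. With reads divided by the noise factor, no unannotated exon passed the same exact test (smallest adjusted p of 1) and 10 had an unadjusted p under 0.05. Division leaves few reads per exon, and only 4 of all 18682 tested exons passed. This outcome therefore does not show that differences were absent.

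**Figure D3:**
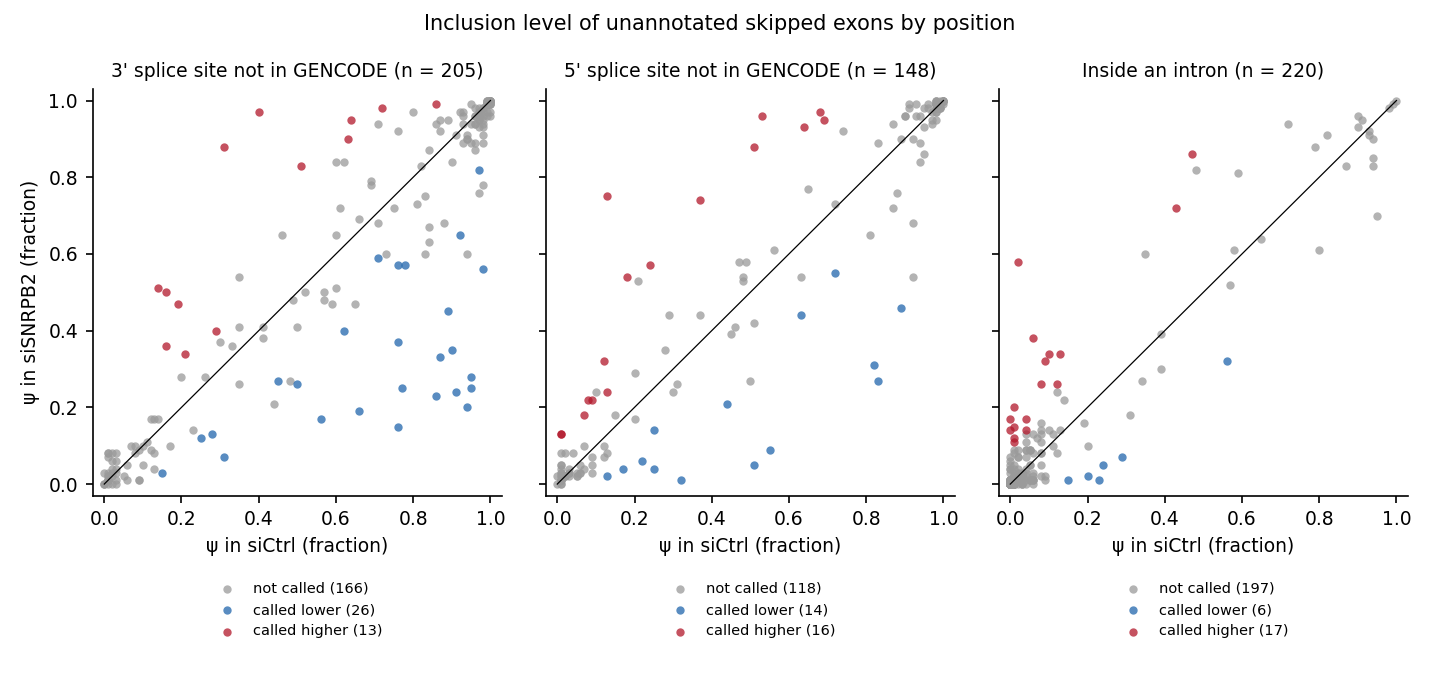
ψ in siSNRPB2 (vertical axis) against ψ in siCtrl (horizontal axis) for exons with an unannotated 3' splice site, an unannotated 5' splice site, or inside introns; each point is 1 exon and the line marks equal values. In the first panel 26 exons were called lower (blue) and 13 higher (red), in the second 14 and 16, and in the third 6 and 17, most of the last rising from ψ near 0.

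Classes differed in their counts of calls, without a test of that difference. Exons named in what follows that fall outside the rule given with the processing, such as the second exons of RHBDD2, POM121C, CARD8 and LINC00630, were chosen after their values were seen. Over all tested exons, 7.61% were called lower and 7.13% higher. Among the 205 exons with an unannotated 3' splice site, 26 (12.7%) were called lower and 13 (6.34%) higher. Fisher's exact test on reads gave 24 lower (11.7%) and 8 higher (3.90%) there, against 5.28% of all tested exons in each direction. Among exons with at least 5 exclusion-only reads over both files, 17 lower and 6 higher calls were left. Lower calls were most frequent among those 7 to 50 nt from the annotated site, with 12 of 59, against 7 of 60 at 1 to 6 nt. Among the 148 exons with an unannotated 5' splice site, 14 (9.46%) were called lower and 16 (10.8%) higher. Of the 49 exons with both sites annotated, 1 (2.04%) was called lower and 4 (8.16%) higher. Exons with 1 annotated site were also set beside annotated exons of like mean ψ over the 2 files. At 0.05 to 0.2, 19.1% were called lower and 12.8% higher, against 12.2% and 14.9% of annotated exons. At 0.2 to 0.8 the shares were 27.8% and 17.6% against 22.0% and 19.2%, and at 0.8 to 0.95 they were 2.17% and 8.70% against 8.03% and 7.62%.

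In the class with unannotated 3' splice sites, the largest decreases that had exclusion-only reads included those in VTI1A, NT5C2, GAS5, ZNF83 and LACC1. The annotated exons sharing a site with those in VTI1A, NT5C2 and ZNF83 were called lower as well. Their ψ was 0.19 and 0.90, 0.26 and 0.96, and 0.12 and 0.65 (siSNRPB2 and siCtrl). The decreases in VTI1A, NT5C2 and ZNF83 are thus not particular to the unannotated sites. GAS5, chosen after its values were seen, went otherwise. Its 19 nt exon had 19 reads for and 31 against in siSNRPB2, and 38 for and 0 against in siCtrl (ψ 0.28 and 0.95). The annotated exon with the same 5' splice site, measured with other flanking exons, had ψ of 0.99 in both files and was not called. VTI1A encodes a SNARE protein of vesicle fusion. Its 112 nt exon (chr10:112448378-112448489), beginning 4 nt before the annotated site, had 10 reads for and 17 against the exon in siSNRPB2, and 37 for and 0 against in siCtrl. ψ was 0.20 and 0.94 (Fisher's exact test, adjusted p = 1.97e-07). NT5C2 encodes a cytosolic 5'-nucleotidase. It had 2 overlapping exons that share their 5' splice site: the 213 nt exon (chr10:103100752-103100964) had 45 reads for and 29 against the exon in siSNRPB2, and 71 for and 0 against in siCtrl, with ψ of 0.25 and 0.95 (Fisher's exact test, adjusted p = 7e-09). In the 85 nt exon nested in it, ψ was 0.24 and 0.91 on the same exclusion-only reads. In the VTI1A exon and both NT5C2 exons all exclusion-only reads were in siSNRPB2.

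The 118 nt ZNF83 exon, of a zinc finger gene, had 14 and 15 reads in siSNRPB2 against 87 and 6 in siCtrl (ψ 0.15 and 0.76). ZNF83 was chosen after its values were seen. LACC1, an enzyme of immune cell metabolism, had a 204 nt exon beginning 1036 nt before the annotated site, with 54 reads for and 36 against the exon in siSNRPB2, and 153 for and 6 against in siCtrl (ψ 0.35 and 0.90). PSMG1, a chaperone of proteasome assembly, had 135 and 39 reads in siSNRPB2 against 146 and 3 in siCtrl (ψ 0.65 and 0.92). RHBDD2, a rhomboid-family membrane protein, had 65 and 14 against 164 and 0 for its 115 nt exon (ψ 0.56 and 0.98). A second exon of RHBDD2, of 401 nt and without exclusion-only reads, was called the other way, with ψ of 0.98 in siSNRPB2 and 0.72 in siCtrl.

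Some decreases rested mostly on flanking reads. SP3, a transcription factor of the Sp family, had 63 inclusion-only reads in siSNRPB2 and 270 in siCtrl with ψ of 0.19 and 0.66, but its 6 exclusion-only reads were all in siCtrl. By read share the SP3 exon was not lower: the difference turned to 0.0217. CDK11B, a kinase with a nearly identical neighbouring copy in the genome, had ψ of 0.82 and 0.97 and 7 reads against the exon, all in siSNRPB2. Its read share differed by -0.0069. SLC35B2, a Golgi transporter of the sulfate donor PAPS, had 122 reads for the exon in siSNRPB2 and 303 in siCtrl, none against it in either, and ψ of 0.45 and 0.89. The annotated SLC35B2 exon was also called lower, with ψ of 0.70 and 0.94. SLC35B2 and ARFRP1 were chosen after their values were seen.

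Other lower calls came from exon versions that overlap, so their ψ values are not separate observations. POM121C, a nuclear pore protein gene with close copies, had 2 exons that share their 5' splice site, with ψ of 0.57 and 0.78 for the 103 nt exon and 0.57 and 0.76 for the 122 nt exon. The POM121C exons had the same reads against the exon (60 and 49) and nearly the same for it (170 and 321, and 181 and 323). ARFRP1, a small GTPase of the Golgi, had 69 and 6 reads in siSNRPB2 against 194 and 5 in siCtrl (ψ 0.27 and 0.45), and the annotated version of the exon was called lower too, with ψ of 0.27 and 0.58.

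Among exons of this class called higher with exclusion-only reads, TIMM23B, a copy of a mitochondrial import channel gene, had the largest ψ difference. ZNF41, a zinc finger gene without such reads, had the same difference of 0.57 (ψ 0.88 and 0.31, on 55 and 29 inclusion-only reads), and was chosen after its values were seen. The TIMM23B exon of 350 nt (chr10:49970109-49970458) had 172 reads for and 0 against the exon in siSNRPB2, and 83 for and 35 against in siCtrl. ψ was 0.97 and 0.40 (Fisher's exact test, adjusted p = 9.86e-14). The annotated exon with the same 5' splice site was called higher too, with ψ of 0.95 and 0.36. TIMM23B has close copies and the exon overlaps an opposite-strand exon, so the assignment of its reads is uncertain. TRPT1, an enzyme of transfer RNA maturation, had 99 and 0 reads in siSNRPB2 against 148 and 15 in siCtrl for the exon with the doubled AG printed above. ψ was 0.90 and 0.63. The annotated TRPT1 exon, 3 nt shorter, had nearly the same ψ, 0.89 and 0.65.

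**Figure D4:**
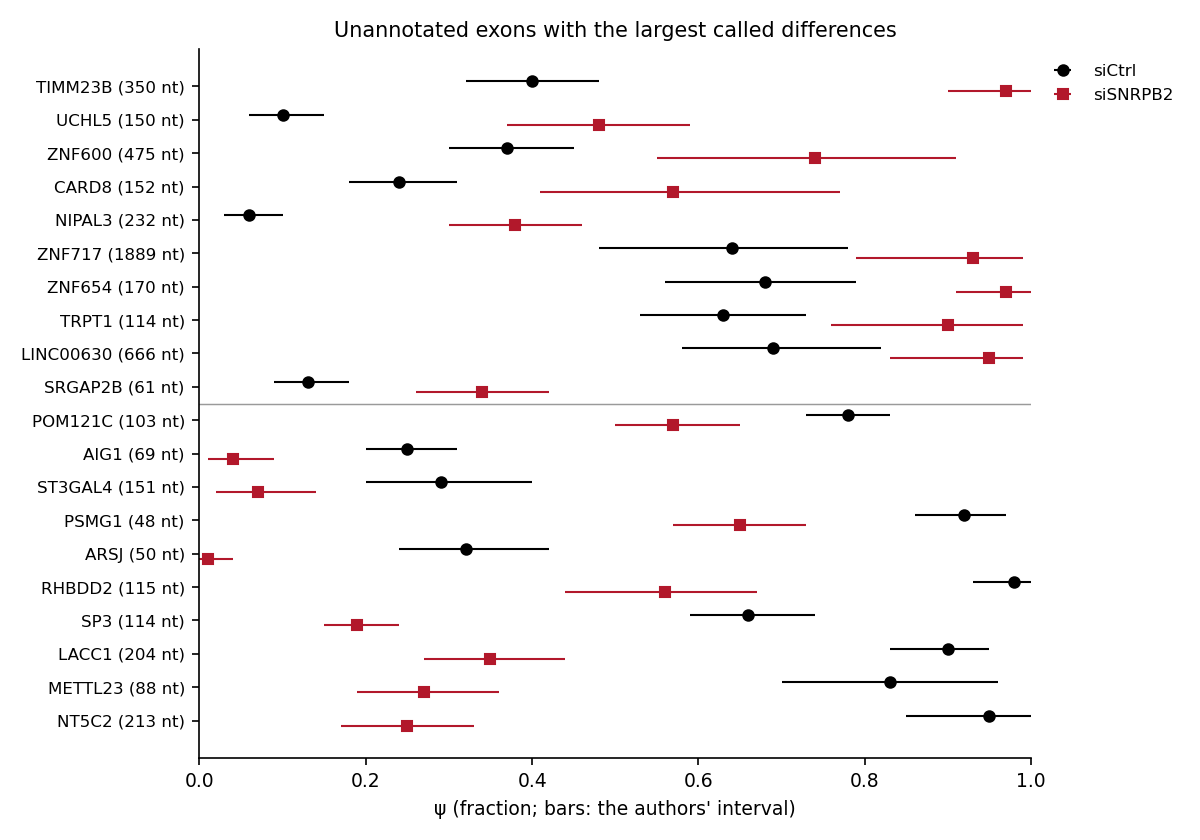
ψ (horizontal axis) in siCtrl (black circles) and siSNRPB2 (red squares), with the authors' interval as bars, for the 10 unannotated exons called higher (above the grey line) and the 10 called lower with the largest difference among those with 50 or more informative reads per file and an exclusion-only read, 1 per gene. TIMM23B leads the increases (0.40 to 0.97) and NT5C2 the decreases (0.95 to 0.25).

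Exons with an unannotated 5' splice site were called in both directions. METTL23, a methyltransferase, had an 88 nt exon (chr17:76729690-76729777) with 37 reads for and 21 against the exon in siSNRPB2, and 105 for and 0 against in siCtrl. ψ was 0.27 and 0.83 (Fisher's exact test, adjusted p = 1.42e-09), and its site, 17 nt before the annotated one, is a GC. The annotated version of the METTL23 exon was called lower as well, with ψ of 0.33 and 0.81. ARSJ, a sulfatase, had 0 reads for and 60 against the exon in siSNRPB2, and 36 for and 43 against in siCtrl (ψ 0.01 and 0.32). CFLAR encodes an inhibitor of caspase-8. Its 111 nt exon had 2 and 42 reads in siSNRPB2 against 32 and 22 in siCtrl (ψ 0.05 and 0.51). AIG1, a lipid hydrolase, had 2 and 55 against 61 and 157 (ψ 0.04 and 0.25), and SSR4, a subunit of the translocon-associated complex, 10 and 100 against 86 and 196 (ψ 0.02 and 0.13). In these 5 exons reads against the exon made up a larger part in siSNRPB2. SSR4, and TGDS below, were chosen after their values were seen.

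Higher calls in the same class included exons of 4 zinc finger genes. Exons of the zinc finger genes ZNF33A, ZNF33B and ZNF304 in this class were not called, and the share of such genes among tested exons was not counted. ZNF600 had 88 reads for and 0 against the exon in siSNRPB2, and 95 for and 46 against in siCtrl (ψ 0.74 and 0.37), and ZNF654 had 111 and 0 against 111 and 14 (ψ 0.97 and 0.68). ZNF26, chosen after its values were seen, had 68 and 23 inclusion-only reads and none against the exon (ψ 0.96 and 0.53), and ZNF717 is given further on. CARD8, an inflammasome protein, had 55 and 6 against 61 and 31 for a 152 nt exon (ψ 0.57 and 0.24). SMUG1, a uracil-DNA glycosylase of base excision repair, had 71 and 1 against 25 and 0 (ψ 0.75 and 0.13). With its only exclusion-only read in siSNRPB2, the SMUG1 exon went the other way by read share, with a difference of -0.0139. TGDS, a sugar nucleotide dehydratase, had 47 and 35 inclusion-only reads and no exclusion-only read, with ψ of 0.54 and 0.18. The annotated TGDS exon, 4 nt longer, rose as well, with ψ of 0.94 and 0.36.

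SINHCAF, a subunit of the SIN3 histone deacetylase complex, was the 1 stretch of overlapping unannotated exons with calls in both directions, and was chosen for that after its values were seen. Its 2 exons share the 3' splice site, have the same reads against the exon (57 in siSNRPB2, 35 in siCtrl) and end 4 nt apart. The longer, ending at GT, had 16 inclusion-only reads in siSNRPB2 and 0 in siCtrl, and ψ was 0.13 and 0.01. The shorter, ending at GC, had 4 and 15, and ψ was 0.04 and 0.17. Reads for the exon thus lay mostly at the GT in siSNRPB2 and at the GC in siCtrl. The Bayes factors in the authors' deposited table were 6236 and 13.6.

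With both sites annotated but not together, UCHL5 had the clearest reads. UCHL5 is a deubiquitinase of the proteasome. Its 150 nt exon (chr1:193020307-193020456) had 48 reads for and 16 against the exon in siSNRPB2, and 19 for and 100 against in siCtrl, with ψ of 0.48 and 0.10 (Fisher's exact test, adjusted p = 5.52e-13). MGAT1, a glycosyltransferase of N-glycan synthesis, had 261 and 447 inclusion-only reads and no exclusion-only read, with ψ of 0.12 and 0.22.

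Among the 220 exons inside introns, which can be called cryptic by position, 17 (7.73%) were called higher and 6 (2.73%) lower, against 7.13% and 7.61% of all tested exons. The share of higher calls was thus near that of all exons, and the share of lower calls was below it. Fisher's exact test on reads gave 26 higher (11.8%) and 17 lower (7.73%), against 5.28% of all tested exons in each direction. Those shares are not directly comparable, as that test cannot call an exon without an exclusion-only read. Such reads were absent in 9.09% of exons inside introns and in 51.1% of all tested exons. Exons inside introns were also set beside annotated exons of like mean ψ over the 2 files, as a description without a test. At a mean ψ under 0.05, no exon of either kind could be called. A difference of 0.1 already puts the mean at 0.05 or more. Between 0.05 and 0.2, 10 of 47 exons inside introns (21.3%) were called higher and 5 (10.6%) lower, against 14.9% and 12.2% of 1497 annotated exons. Between 0.2 and 0.8, 7 of 19 (36.8%) were called higher and 1 (5.26%) lower, against 19.2% and 22.0% of 4347 annotated exons. All 17 higher calls lay in these 2 ranges. In 5 of the 17 higher calls siCtrl had no inclusion-only read at all, and in 9 ψ in siCtrl was at most 0.05. The 6 lower calls mirrored this: in 2 siSNRPB2 had no inclusion-only read, and in 4 ψ in siSNRPB2 was at most 0.05.

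The 5 exons called higher without an inclusion-only read in siCtrl were in KMT5A, DISC1, BRPF1, BCL2L13 and GLIPR2. Only KMT5A and BCL2L13 were named by rule, and the others were added after their values were seen. KMT5A is the methyltransferase that adds 1 methyl group to histone H4 lysine 20. Its 113 nt exon (chr12:123404639-123404751) had 20 reads for and 31 against the exon in siSNRPB2, and 0 for and 92 against in siCtrl, where 0 of 92 allows a share of up to 3.26%. ψ was 0.14 and 0.00 (Fisher's exact test, adjusted p = 3.26e-09). BCL2L13 encodes a mitochondrial protein of the BCL2 family. Its 115 nt exon (chr22:17662899-17663013) had 28 and 5 reads against 0 and 49 (a share of up to 6.12%), and ψ was 0.20 and 0.01 (Fisher's exact test, adjusted p = 7.29e-15). These limits (3 counts of the total) cover counting error only.

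BRPF1, a scaffold of histone acetyltransferase complexes, had a 190 nt exon (chr3:9742352-9742541) with 39 reads for and 17 against the exon in siSNRPB2, and 0 for and 28 against in siCtrl (ψ 0.17 and 0.00). DISC1, a scaffold protein studied in neurons, had 10 and 34 reads against 0 and 107 for a 96 nt exon (chr1:231745404-231745499; ψ 0.15 and 0.01). GLIPR2, a Golgi-associated protein gene, had 19 and 3 against 0 and 46 for a 135 nt exon (chr9:36160469-36160603; ψ 0.58 and 0.02). That the inclusion-only reads of all 5 were in siSNRPB2 alone follows from how these exons were chosen. ZMYM4, a zinc finger gene, was close to these, with 30 and 158 reads in siSNRPB2 against 1 and 105 in siCtrl for its 76 nt exon (ψ 0.11 and 0.01).

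NIPAL3, a membrane protein gene of a magnesium transporter family, had 2 nested exons called higher. Its 232 nt exon had 86 reads for and 28 against the exon in siSNRPB2, and 11 for and 39 against in siCtrl, and ψ was 0.38 and 0.06 (Fisher's exact test, adjusted p = 7.61e-09). The 275 nt exon that contains it had 86 and 28 against 23 and 39 (ψ 0.34 and 0.10). Both overlap an exon of another gene on the opposite strand, and the AG printed above is on the NIPAL3 strand. SRGAP2B, which has near-identical copies in the genome, had 63 and 19 reads against 38 and 49 for its 61 nt exon (ψ 0.34 and 0.13), and the share of reads that belong to the copies is not known.

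The 6 exons inside introns called lower were in PXK, ST3GAL4, CARD8, NF2, ZNF83 and AC127502.1, named because they are so few. PXK, a kinase-like protein gene, had 0 reads for and 54 against the exon in siSNRPB2, and 11 for and 13 against in siCtrl for a 38 nt exon (ψ 0.01 and 0.23). ST3GAL4, a sialyltransferase, had 6 and 44 against 26 and 38 (ψ 0.07 and 0.29). A 307 nt exon of CARD8 had 27 and 20 against 104 and 2 (ψ 0.05 and 0.24), opposite in direction to the CARD8 exon with an unannotated 5' splice site. ZNF83 had 2 and 31 against 50 and 23 (ψ 0.01 and 0.15). NF2 encodes the tumour suppressor merlin, and its 116 nt exon had 0 and 20 against 12 and 10 (ψ 0.02 and 0.20).

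**Figure D5:**
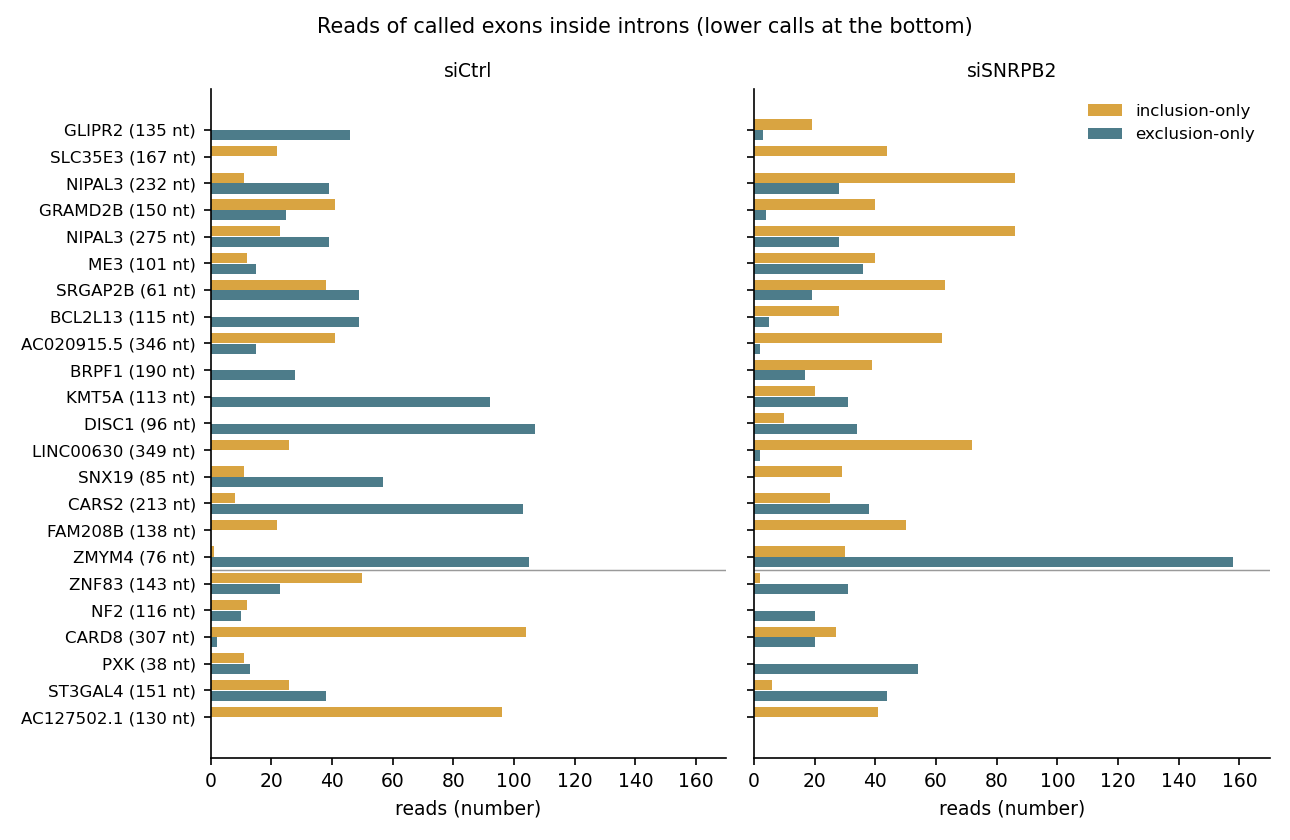
Inclusion-only reads (ochre) and exclusion-only reads (blue-green) in siCtrl (left) and siSNRPB2 (right) for the 23 called exons inside introns, ordered by ψ difference, with the 6 lower calls below the grey line; horizontal axis, number of reads. KMT5A, DISC1, BRPF1, BCL2L13 and GLIPR2 have no ochre bar in siCtrl and 10 to 39 such reads in siSNRPB2.

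Reads that fit neither isoform, which can come from unspliced RNA among other sources, were compared with those that fit either. The log2 of their ratio (pseudocount 1) was higher in siSNRPB2 by a median of 0.13 over all tested exons, 0.14 over exons inside introns, 0.20 over the 17 called higher there and 0.35 over the 6 called lower. It ranged from -1.36 to 1.26 among the 17. Their part in the calls was not tested.

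The classes left were small. Of 13 exons inside a longer exon 1 was called, of 9 overlapping exons in another way 2, and of 5 outside genes 2. Over all tested exons 14.7% were called, and these classes are too small to read a share from. PRPF38B, a component of the spliceosome, had a 54 nt exon inside a longer annotated exon, printed above, with 0 reads for and 130 against the exon in siSNRPB2, and 24 for and 69 against in siCtrl. ψ was 0.01 and 0.12 (Fisher's exact test, adjusted p = 5.52e-09). STX2, a syntaxin of membrane fusion, had 16 and 79 against 42 and 70 (ψ 0.05 and 0.16), and TUFT1, encoding tuftelin, 14 and 7 against 0 and 22 (ψ 0.52 and 0.02). In siCtrl 0 of 22 reads for the TUFT1 exon allows a share of up to 13.6%. Outside annotated gene bounds, an exon whose event shares an exon end with AMZ2 had 65 and 27 inclusion-only reads without exclusion-only reads (ψ 0.26 and 0.10), and 1 that shares an end with FAM72C, a gene with near-identical copies, 65 and 75 (ψ 0.47 and 0.90).

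Read depth over the events changed little. The log2 ratio of reads compatible with either isoform, siSNRPB2 over siCtrl, scaled to the file total over 1 event per gene and with a pseudocount of 1, had a median of 0.03 over the 649 exons. Over all tested exons it was -5.18e-03. It was at least 1 for 19 unannotated exons and at most -1 for 14. The exons called higher had a median of 0.05 and those called lower 0.03.

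Few unannotated exons fell in the listed pathways, and calls were counted there as a description, beside 7.61% lower and 7.13% higher over all tested exons. A list held 3 to 10 of these exons, too few to read a share from. Of 8 in splicing factors and RNA-binding proteins, 1 was called lower (PRPF38B) and none higher. Apoptosis and p53 pathway genes had 6, with 1 lower (CFLAR) and 1 higher (BCL2L13). Chromatin regulators had 10, with 2 higher: KMT5A and BRD1, a scaffold of acetyltransferase complexes (ψ 0.18 and 0.07). Membrane trafficking genes had 7, with 2 lower (VTI1A and STX2), and mitochondria and metabolism 9, with 2 lower, both NT5C2. Mitosis and cell cycle genes had 6, with 1 lower (CEP57, a centrosomal protein, ψ 0.06 and 0.22), and DNA replication and repair 7, with 1 higher (SMUG1). No call fell among 3 exons of nonsense-mediated decay genes (all in UPF3A), 8 of actin, adhesion and epithelial-mesenchymal switch genes, 4 of translation and ribosome genes, and 7 of ubiquitin and proteasome genes. Median ψ differences of the 11 lists lay between -0.015 and 0.02, and that of all tested exons was 0.

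Several called exons lay in genes with near-identical copies or pseudogenes (TIMM23B, SRGAP2B, FAM72C, POM121C, ZNF717 and CDK11B), where reads could be assigned to the wrong copy. ZNF717 had 378 and 0 reads in siSNRPB2 against 397 and 7 in siCtrl (ψ 0.93 and 0.64). LINC00630, a long non-coding RNA gene, had 3 called exons, each higher in siSNRPB2, with ψ of 0.96 and 0.30 for the 172 nt exon, 0.95 and 0.69 for the 666 nt exon and 0.26 and 0.12 for the 349 nt exon. None of these LINC00630 exons met the rule on reads. The 172 nt exon had no exclusion-only read, the 666 nt exon had 8, all in siCtrl, and the 349 nt exon 2, both in siSNRPB2. LARP1, a regulator of messenger RNAs of the translation machinery, had the most informative reads of the lower calls with an unannotated 5' splice site, with 1669 and 2163 inclusion-only reads, none exclusion-only and ψ of 0.55 and 0.72.

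The read minimum decided which exons were counted. Just inside it, 30 unannotated exons had 20 to 22 informative reads in their shallower file, with median ψ of 0.07 in siSNRPB2 and 0.045 in siCtrl. Just outside it, 38 had 17 to 19, with medians of 0.07 and 0.02. Of the former 2 were called lower and 5 higher, and of the latter 1 and 4.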

How the data were processed

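The RNA-seq comprised 4 libraries of MDA-LM2 total RNA, 2 per group. The submitters' processing notes name STAR 2.7 and the build hg38. The authors estimated ψ, a fraction from 0 to 1 with an interval, with MISO for skipped-exon events and deposited 1 summary per group with reads per class of compatibility, per the file headers. The Bayes factor, a ratio weighing a difference against none, is the authors' deposited value and reaches at most 1e+12. For the MISO version, the merging of libraries and the use of strand in counting, no statement was found: not given in the sources used here. With 1 file per group, ψ has no SD or n. Depth is the number of assigned reads per file and informative reads per exon, and no molecular identifiers are mentioned.

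Skipped exons were matched to GENCODE release 29 by start, end and strand, and genes were assigned by shared exon ends and position. Fisher's exact test with Benjamini-Hochberg adjustment covered all 18682 tested exons, and was tested on simulated data (Python 3.11.15, scipy 1.17.1, pandas 2.3.3). The noise factor was taken from 4582 exons without exclusion-only reads and with ψ of 0.95 or more in each file: a chi-square compared their inclusion-only and flanking reads across files, and its median was divided by the value expected from counting error alone. Sequences came from GENCODE transcripts, and 1019468 bases read from more than 1 transcript held 0 conflicts. Named exons were the 10 called lower and 10 called higher with the largest ψ difference (50 or more informative reads per file, an exclusion-only read, 1 per gene), any that passed after division by the noise factor, the 5 deepest, the 2 deepest called per class, the 5 deepest within 6 nt of an annotated end, and up to 3 called exons for each of 11 gene lists. A named exon and some sequences are not reported here. The members and lists were chosen with earlier results of these data known. Alternatives changed the thresholds, read minimum, event choice, measure, test, definition of unannotated and scaling.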

Additional observations from a re-analysis of the deposited data

How the results depend on the processing

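The unannotated exons called lower and higher numbered 50 and 52. They numbered 31 and 32 with a ψ difference of at least 0.2, 30 and 29 among 411 exons with 50 informative reads per file, 33 and 33 among 406 with 5 exclusion-only reads, 9 and 18 among 245 with neither end within 3 nt of a GENCODE exon end, 9 and 19 among 247 with neither end an annotated splice site, and 0 and 0 by Fisher's exact test on reads divided by the noise factor. Counts stayed within 1.5 times under the other alternatives run (40 and 38 at a Bayes factor of 100, 66 and 64 with a ψ difference of 0.05, 59 and 72 with 10 informative reads per file). Fisher's exact test on undivided reads called 110 exons, and 0 after division. Division leaves few reads per exon, and only 4 of all 18682 tested exons passed, so that 0 does not show that differences were absent. Median ψ, 0.22 in siSNRPB2 and 0.20 in siCtrl, was 0.806 and 0.846 as a read share, 0.675 and 0.733 with inclusion-only reads divided by 2, 0.38 and 0.37 with 50 informative reads and 0.04 and 0.04 with 5 exclusion-only reads. By class, in alternatives chosen after seeing the data, lower and higher calls at unannotated 3' splice sites were 17 and 6 with 5 exclusion-only reads, and higher calls 8 by Fisher's exact test. At unannotated 5' splice sites lower calls were 9 with 5 exclusion-only reads and higher calls 9 at a Bayes factor of 100. Inside introns Fisher's exact test gave 17 lower and 26 higher. Among the named exons, the read share difference turned for SMUG1 (-0.0139) and SP3 (0.0217), and 9 others did not meet the rule on reads, 7 of them by the adjusted p and 2, CDK11B and TRPT1, only by the read share difference (-0.0069 and 0.092). The causes were not tested, beyond the fewer exons that stricter rules leave. No paired analysis was possible because there is 1 file per group, and for the same reason no replicate could be left out. The number of informative reads, at least 20 per exon and file, limits the precision of ψ.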
